A study of Salmo salar with 37 samples.

Results

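The genes described here are 27 of the 43689 probes on a salmon microarray that carry an immune word in their description. The terms were immunoglobulin, histocompatibility, T-cell, B-cell, chemokine, interleukin, complement, toll-like, lectin, macrophage, leukocyte, cathelicidin and tumor necrosis factor, searched among the 1974 probes that the study listed with a description. Of 29 probes found, 2 were left out because their descriptions also mention interferons. The description of the listed probes was available only because the study had found them to differ between its groups, so the members were chosen by measured values. By the study's own contrasts, 13 members were listed for maturing against immature testes alone. The other 14 were listed for a ration difference within immature or within maturing males, 4 of them for maturation as well. No member stood on the study's list for all RR against all NR males.

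The name immune cell genes fitted these probes in part. Roles were assigned here and not by the study. By role, 4 members were grouped with antigen receptors or immunoglobulins, 5 with cytokines or cytokine receptors and 7 with innate sensors, effectors or phagocyte proteins. The remaining 11 matched a word although the protein works in many cells. The first 3 groups are broad. They also hold immunoglobulin G-binding protein A, a bacterial protein name, the LITAF homolog, named for a factor induced by lipopolysaccharide, and NRAMP 2, an iron transporter. Plectin-1, a protein that links cytoskeletal filaments, matched through the letters of "lectin". The markers that define leukocytes, such as the common leukocyte antigen and the CD3 chains, could not be looked up, since the probes outside the study's lists carry cluster and clone names without gene names. The members are therefore called immune-worded genes. Nucleotide sequences of the probes were not used here.

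The testes came from 37 post-smolt Atlantic salmon males (Salmo salar), 16 of them fed a normal ration (NR) and 21 a restricted ration (RR). NR fish were fed to appetite every day and RR fish got that daily amount on Mondays, Wednesdays and Fridays and no feed on other days. The 2 rations were kept in separate sea cages, so that ration and cage cannot be told apart. RNA of whole testis from 1 male was hybridized to each one-color array, and rations were read from the sample titles because another label field calls all 37 rations normal. The males were selected by the study on histology, with type A spermatogonia as their most advanced germ cells, and were immature or maturing. Which male was which was not used here, since the labels do not state it. Replicates are individual males, and p-values measure the spread between males.

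Immune cells live in the vertebrate testis mainly as macrophages and a few lymphocytes between the tubules, and many immune receptors are also made by somatic cells there. Antigen receptors define T and B cells, cytokine receptors pass on signals between leukocytes and other cells, and innate sensors such as the toll-like receptors recognize microbial molecules. Fish erythrocytes keep their nucleus, so that blood within a tissue adds transcripts to its RNA.

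All levels are log2 of the processed (background-corrected) Cy3 signal after quantile normalization, and all differences are RR minus NR on that log2 scale. Levels of different probes were not compared. Of the 27 members, all were measured well enough to be tested, and for 25 of them no array fell short of a signal well above background. The exceptions were the TNF domain probe, well above background in 15 of 16 NR and 14 of 21 RR males, and immunoglobulin superfamily (IgSF) member 10, in 16 of 16 and 19 of 21. Members had a median SD of 0.62 over the 37 males against 0.38 over all probes. They were listed for differing between groups of these same males, so the larger spread follows in part from the choice. In whole tissue, fewer cells of a type and less RNA per cell cannot be told apart.

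Some males stood apart. RR male 16 had a median processed signal of 860 against 229 to 470 in the other 36 males. It was the lowest male in 11 members and was among the 5 lowest in 17. These were not counted over all probes, so nothing is read from them. RR 16 also had the lowest maturation score of all males, -0.67 (the score is described below). The part of either in its levels was not tested. RR males 17 to 21 lay at the top of many members, as described next. The arrays were scanned on 2 days, with 11 NR and 6 RR males on day 1 and 5 NR and 15 RR males on day 2. Of 40684 probes in the fit, 104 differed by ration, 36 higher and 68 lower in RR (limma, Benjamini-Hochberg adjusted p below 0.01 and fold change above 1.5), which is 0.256% of probes. Probes past both thresholds are called differentially expressed. With scan day as a block the count was 9, all higher in RR males. The differences of the members are therefore also given within each scan day. RR 19 was scanned on day 1 and RR 17, 18, 20 and 21 on day 2, so the days also differ in these males.

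The widest pattern among the members was set by 5 males. In 12 members the 5 highest of all 37 males were RR males 17, 18, 19, 20 and 21, a pattern that 4.47% of all probes showed. In 6 further members 4 of the 5 highest males were from these 5. This was not counted over all probes, and all 6 were on the study's maturation list, so nothing is read from it. Of the 12 members, 7 were on the study's maturation list. The other 5 were listed as higher in RR than in NR among maturing males. The choice of all 12 thus used values of the same kind, and nothing is read from the excess over all probes. The 12 covered every role. They were both T-cell receptor (TCR) probes, the immunoglobulin domain probe, the LITAF homolog, galectin-9, NRAMP 2, the TOPK homolog, both C1QBP probes, both ILF2 probes and plectin-1 probe 1.

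**Figure D1:**
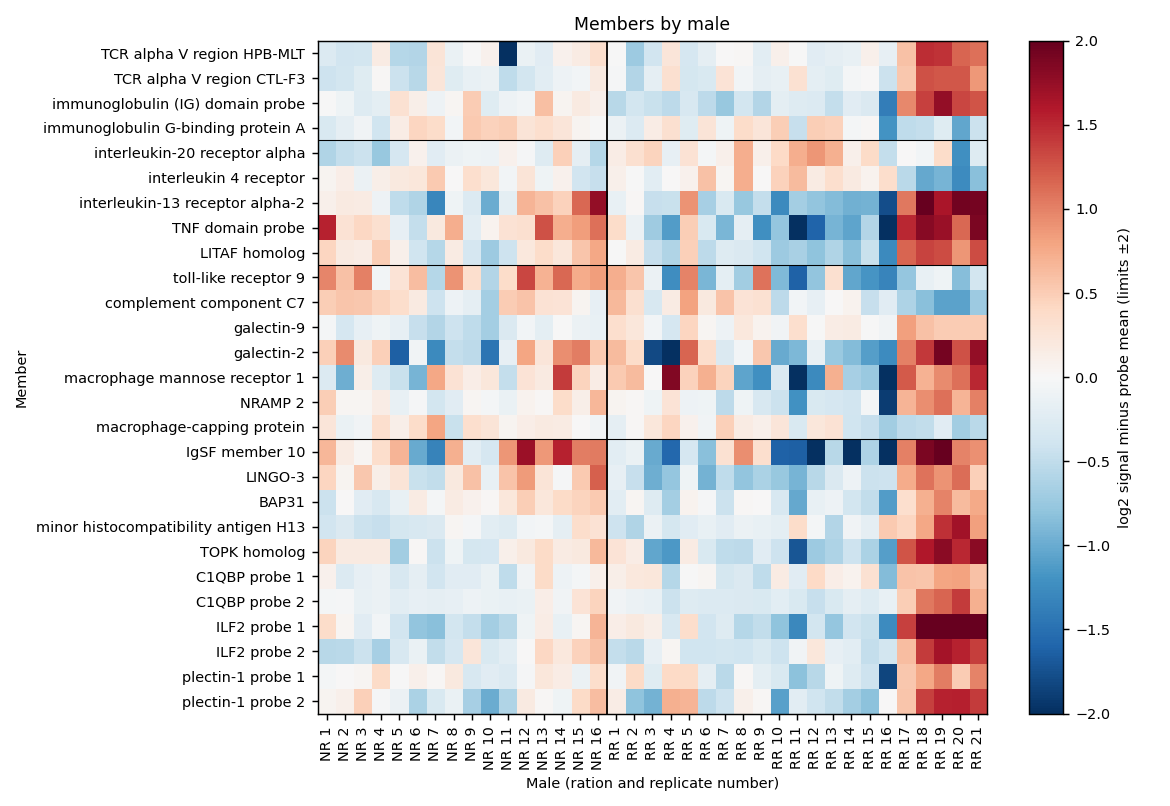
Log2 signal of the 27 members (rows, grouped by role with thin lines) in 37 males (columns, NR left and RR right of the thick line), drawn as the deviation from the mean of each probe. The columns of RR males 17 to 21 are red in most rows and blue in the interleukin 4 receptor, complement component C7 and macrophage-capping protein rows, while the column of RR 16 is blue in many rows.

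The opposite pattern was rarer. In the interleukin 4 receptor (the chain that binds interleukin 4 on lymphocytes and other cells), the 5 lowest males were RR males 17 to 21, as in 1.84% of all probes. Their signals ran from 10.37 to 11.09, below every NR male (11.18 to 12.16) and below every other RR male (11.42 to 12.36). Complement component C7 and macrophage-capping protein had 4 of the 5 lowest males from this set, which was not counted over all probes. The interleukin 4 receptor was listed as lower in maturing testes. C7 and macrophage-capping protein were listed as lower in RR than in NR among maturing males. Of all members, 16 were listed as higher and 1 as lower in maturing testes. The low values and the rarity thus follow in part from the choice, and nothing is read from them. Toll-like receptor 9 (TLR9, probe CUST_31142_PI417904088) was the 1 member in which none of these 5 males was among the 5 highest or the 5 lowest. Their TLR9 signals, from 8.51 to 9.28, still lay below the NR median of 10.03. TLR9, too, was listed as lower in RR than in NR among maturing males.

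A score of each male over 1124 other probes that the study listed as higher in maturing testes ran from 0.66 to 1.05 in RR males 17 to 21, and was 0.59 in NR 16, the next male. Proliferation probes from the study's lists were set beside the score. Of 4 probes for antigen KI-67 and proliferating cell nuclear antigen, which mark dividing cells, 3 had the same 5 males as their highest. The remaining probe, for proliferating cell nuclear antigen, had NR 1 and NR 11 among its 5 highest males and a difference of -0.75. This probe and a KI-67 probe are on the maturation list and so part of the score. The others were listed as higher in RR among maturing males, so the likeness follows in part from the choice. Scores also differed between scan days. The NR males of day 2 were NR 1 to NR 5, with scores from -0.29 to 0.10. NR 12 to NR 16, with scores from 0.14 to 0.59, were scanned on day 1. Differences within a scan day thus compare males of unlike scores, and scan day and maturation cannot be told apart in them. The part of cell division or maturation in the members' levels was not tested.

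Among the antigen receptor probes, 2 were described as TCR alpha chain V region, the variable part of the receptor by which T cells recognize antigen. The probe for clone CTL-F3 ran from 8.89 to 9.68 in NR males (median 9.21) and from 8.85 to 10.72 in RR males (median 9.39). All 5 RR males above 9.9 were males 17 to 21, and the other RR males lay within or close to the NR range. Its mean was 9.23 ± 0.23 (SD, n = 16) in NR and 9.60 ± 0.57 (SD, n = 21) in RR males, a difference of 0.36 that was 0.09 without RR males 17 to 21. Within scan days it was 0.22 on day 1 and 0.48 on day 2. The probe for clone HPB-MLT ran from 7.50 to 9.93 in NR males (median 9.45) and from 8.86 to 11.06 in RR males (median 9.58). Its lowest value came from NR 11, far below every other NR male. Its difference of 0.41 was 0.37 on day 1, 0.47 on day 2 and 0.10 without RR males 17 to 21. Both probes are listed by the study for a ration difference among maturing males, so that no test was made.

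The pair also varied together among the males at the lower levels. Over the 16 NR males the signals of the TCR probes correlated with a Pearson r of 0.73 and a Spearman rho of 0.94, and r was 0.90 without the 2 males farthest from the median. Over RR males 1 to 16, r was 0.78, rho was 0.77, and r was 0.60 without the 2 farthest males. The arrays share their overall signal and the probes may detect the same receptor transcripts, so these correlations are descriptions of 1 receptor chain measured by 2 probes.

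**Figure D2:**
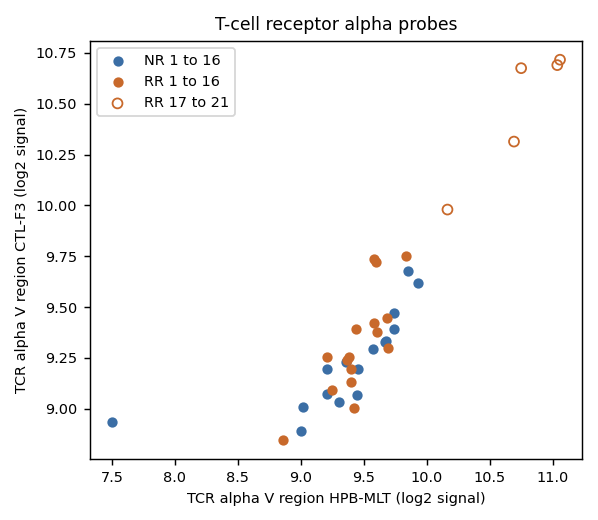
Signals of the T-cell receptor alpha probes HPB-MLT (x axis) and CTL-F3 (y axis), log2, with 1 point per male. RR males 17 to 21 (open circles) lie above 10.1 on the x axis and above 9.9 on the y axis, and NR 11 lies alone at 7.50 on the x axis.

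The other same-description pairs were less alike. The C1QBP probes (a mitochondrial protein that also binds complement C1q) had an r of 0.62 and a rho of 0.74 in NR males, and an r of 0.12 and a rho of 0.24 in RR males 1 to 16. The plectin-1 probes had an r of 0.53 in NR and 0.17 in RR males 1 to 16, with a rho of 0.34 and 0.37. The ILF2 probes, for a factor that binds RNA and DNA in the nucleus of most cells, had an r of 0.36 in NR and -0.23 in RR males 1 to 16, with a rho of 0.14 and -0.21. These values moved with the scaling. In RR males 1 to 16 the r of the C1QBP probes was 0.44 with 75th percentile scaling and 0.50 with the deposited values, and that of the plectin-1 probes 0.59 and 0.19. The ILF2 probes stayed the least alike of these pairs in RR males 1 to 16, with an r of -0.16 and 0.05 under the same scalings. In all 4 pairs the correlation was computed within a ration.

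The immunoglobulin domain probe, a family of folds found in antibodies and many surface proteins, split the RR males. Its signal ran from 9.47 to 10.33 in NR males (median 9.75) and from 8.36 to 11.49 in RR males (median 9.42). RR males 17 to 21 lay at 10.698 to 11.49, above every NR male, and of the other 16 RR males 13 lay below every NR male. The mean difference was -0.09 with all males (-0.16 on day 1 and 0.02 on day 2) and -0.52 without RR males 17 to 21. Immunoglobulin G-binding protein A, a name that belongs to a bacterial surface protein, had a difference of -0.26. It was -0.06 with scan day as a block, -0.02 on day 1 and -0.10 on day 2.

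Among cytokine receptors, interleukin-20 receptor alpha, which takes part in receptors for cytokines of the interleukin-20 group, was listed by the study for a ration difference in immature males. It ran from 6.97 to 8.21 in NR males (median 7.52) and from 6.50 to 8.62 in RR males (median 7.88). The NR median was exceeded by 18 of 21 RR males, and the lowest value of all was that of RR 20. The means were 7.51 ± 0.31 (SD, n = 16) and 7.90 ± 0.47 (SD, n = 21), a difference of 0.39. Within scan days the difference was 0.46 on day 1 and 0.61 on day 2, and without RR males 17 to 21 it was 0.51. The LITAF homolog, named for a factor induced by lipopolysaccharide, had a difference of -0.13, with -0.19 on day 1, -0.27 on day 2 and -0.53 without RR males 17 to 21.

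TLR9, an endosomal receptor for bacterial and viral DNA, had the largest difference among the members. It ran from 8.78 in NR 10 to a highest NR signal of 10.699 (median 10.03) and from 7.75 to 10.45 in RR males (median 8.67). The groups overlapped, with 3 RR males over the median of NR (RR 1, RR 5 and RR 9) and 11 RR males below the lowest NR male. The means were 9.91 ± 0.56 (SD, n = 16) in NR and 8.96 ± 0.78 (SD, n = 21) in RR males, a difference of -0.94, or 0.520-fold. The difference was -0.72 on day 1, -1.05 on day 2 and -0.93 without RR males 17 to 21. Since the study listed TLR9 for a ration difference on these males, no test was made.

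TLR9 moved with the blood transcripts of each male. The erythrocyte level was the log2 of the summed signal of 7 probes, 6 described as hemoglobin subunits and 1 as erythroid 5-aminolevulinate synthase, the enzyme that starts heme synthesis in red cells. This list was also taken from the study's lists. The level ran from 18.42 to 19.50 in NR males (median 19.08) and from 16.97 to 19.50 in RR males (median 18.13). Of the 7 probes, 5 stood on the study's list for all RR against all NR males, so they were not tested. Their differences ran from -0.88 to -1.26, or from -0.86 to -1.23 with scan day as a block. Of the hemoglobin subunit alpha probes outside that list, 1 listed for ration in maturing males differed by -1.33. Another, listed for maturation alone, was not lower in RR males, with a difference of 0.05 ± 0.08 (SE). RR 1 and RR 9, at the top of the RR males for TLR9 together with RR 5, had the highest RR erythrocyte levels, 19.50 and 19.43. RR 4 and RR 11, with 8.13 and 7.75 for TLR9, had the lowest, 16.97 and 17.13.

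After the mean of each ration was taken away, TLR9 correlated with the erythrocyte level over the 37 males with a Pearson r of 0.89 and a Spearman rho of 0.89 (permutation test, two-sided, p = 1e-05 for each, the smallest that 100000 resamples can give, and adjusted p = 0.00027 over 27 members). The members and the erythrocyte probes came from lists made on these same males. Males were shuffled within ration without regard to scan day or maturation. The permutation p-values of TLR9 and of the other members are therefore given as description only. The r was 0.91 in NR males, 0.89 in RR males, 0.96 on scan day 1, 0.85 on day 2, 0.88 without the 2 males farthest from the median level and 0.90 without RR males 17 to 21. Of 40677 probes outside the erythrocyte list, 47 including TLR9 had an r at least as high, or 0.116% of probes. The median r over these probes was 0.01. With the erythrocyte level of each male as a covariate, the ration difference of TLR9 was 0.08 in place of -0.94. The level was built mostly from probes listed for ration and itself differed by ration (median 19.08 in NR and 18.13 in RR males). The covariate thus also takes away ration differences of probes that follow it, and the count over all probes went from 104 to 12. The part of blood content in the TLR9 level was not tested beyond these values.

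**Figure D3:**
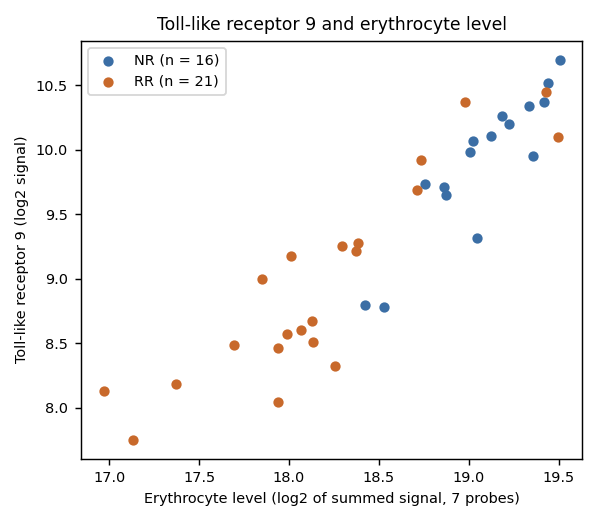
Toll-like receptor 9 signal (y axis, log2) against the erythrocyte level (x axis, log2 of the summed signal of 7 probes), with 1 point per male, NR blue and RR orange. The points of both rations rise along 1 band, from RR 11 (17.13 on the x axis and 7.75 on the y axis) to NR 12 (19.50 and 10.699).

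The other members followed the erythrocyte level less. Galectin-2, a lectin that binds beta-galactoside sugars, had an r of 0.53 and a rho of 0.52 (permutation test, two-sided, adjusted p = 0.0202 for r and 0.0149 for rho), with r at 0.54 on day 1, 0.52 on day 2 and 0.43 without the 2 farthest males. TLR9 and galectin-2 had the highest r of the 27 members. Complement C7 (r = 0.40, rho = 0.52, permutation test, adjusted p = 0.189 and 0.0149) and galectin-9 (r = 0.39, rho = 0.46, adjusted p = 0.189 and 0.0417, permutation test) came next by r. No member is taken as passing or failing by these p-values. Within NR males, r of the members other than TLR9 ran from -0.56 (macrophage-capping protein) to 0.80 (galectin-2), with 0.74 for galectin-9 and 0.71 for the LITAF homolog. Without RR males 17 to 21 it ran from -0.41 (TCR probe CTL-F3) to 0.72 (TOPK homolog). Following the erythrocyte level was thus not particular to TLR9. With the covariate, the ration difference of galectin-2 was 0.94 in place of 0.00 (limma, adjusted p = 0.542), that of the TNF domain probe -0.21 in place of -0.80, and that of IgSF member 10 -0.02 in place of -0.75.

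Galectin-9, a lectin that acts on T cells and other leukocytes, was the member with the largest difference toward RR males. It reached at most 11.68 in NR males (median 11.51) and ran from 11.36 to 12.50 in RR males (median 11.86). The NR median was exceeded by 20 of 21 RR males and the highest NR male by 15, and 6 NR males lay below the lowest RR male. The means were 11.42 ± 0.21 (SD, n = 16) and 11.89 ± 0.29 (SD, n = 21), a difference of 0.47, or 1.38-fold. It was 0.47 on day 1, 0.38 on day 2, 0.35 without RR males 17 to 21 and 0.63 with the erythrocyte level as a covariate. This member, too, was listed for a ration difference among maturing males, as higher in RR, and was not tested.

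**Figure D4:**
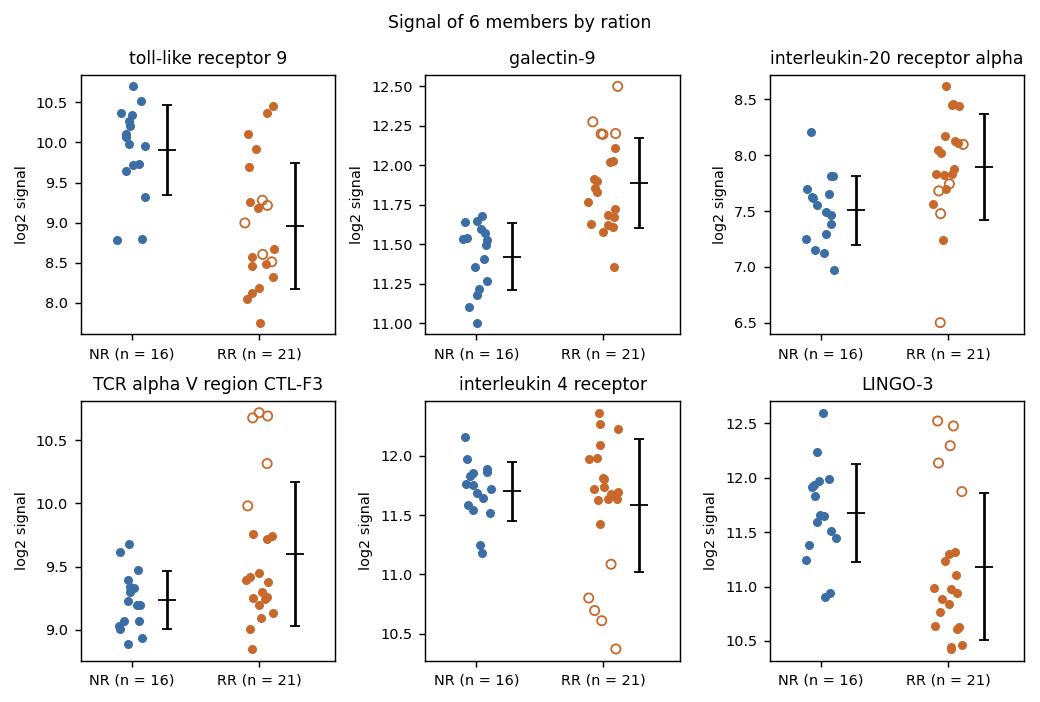
Log2 signal of 6 members in NR (n = 16) and RR (n = 21) males, with 1 point per male, RR males 17 to 21 as open circles, and bars for the mean and SD. The NR and RR points of toll-like receptor 9 and galectin-9 are shifted in opposite directions, whereas the open circles stand apart in the TCR and interleukin 4 receptor panels.

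Complement component C7, part of the pore that complement forms in membranes, had a difference of -0.30, which was -0.16 on day 1, -0.60 on day 2 and -0.07 without RR males 17 to 21. Macrophage-capping protein, which caps actin filaments, had a difference of -0.25, with -0.08 on day 1, -0.29 on day 2 and -0.13 without these males. Of the 14 members listed for ration, 6 had a higher and 8 a lower mean in RR males, with differences from -0.94 to 0.47 and a median of -0.07, beside a median of -0.02 over all probes. The ILF2 probe 1 changed sign from 0.37 (0.11 on day 1 and 0.34 on day 2) to -0.20 without RR males 17 to 21. Closer to 0 were C1QBP probe 1 at 0.24 (0.18 and 0.28 on days 1 and 2), the TOPK homolog, a kinase of dividing cells, at -0.09 (-0.10 and -0.09), and plectin-1 probe 1 at -0.05 (0.04 and -0.13).

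The 13 members listed for maturation alone were fitted for ration with all probes. The 4 members listed for both maturation and ration stand with the ration members above, so the set holds none that the study listed for ration and its count of calls is partly fixed by that choice. None of the 13 was differentially expressed (limma, lowest adjusted p = 0.186), against 0.256% of all probes. At an unadjusted p below 0.05 there were 3, all lower in RR males, beside 16.4% of all probes. Of the 13, 4 had a higher and 9 a lower mean in RR males, with a median difference of -0.12, where 46.0% of all probes were higher in RR males. The 95% intervals allow differences as large as -1.56, so that a difference past 1.5-fold is not shut out for every member.

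The TNF domain probe, matched to the fold shared by the tumor necrosis factor family of cytokines, ran from 4.81 to 6.82 in NR males (median 5.61) and from 1.76 to 7.17 in RR males (median 4.71). The highest RR signals were those of males 17, 18, 19 and 21, the lowest those of RR 16 (1.76) and RR 11 (2.12), and 11 RR males lay below the lowest NR male. The difference was -0.80 ± 0.38 (SE, limma, adjusted p = 0.283), with -0.72 on day 1 and -0.85 on day 2. IgSF member 10, a secreted protein with immunoglobulin domains, ran from 4.96 to 8.01 in NR males (median 6.97) and from 3.95 to 8.31 in RR males (median 5.96). Both ends of its range were RR males. The difference was -0.75 ± 0.36 (SE, limma, adjusted p = 0.299), with -0.40 on day 1 and -0.85 on day 2.

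LINGO-3, a membrane protein with leucine-rich repeats and an immunoglobulin domain, ran from 10.91 to 12.60 in NR males (median 11.65) and from 10.43 to 12.52 in RR males (median 10.97). RR males 17 to 21 lay between 11.87 and 12.52, while the other 16 RR males lay between 10.43 and 11.32. The difference was -0.49 ± 0.19 (SE, limma, adjusted p = 0.186), with -0.70 on day 1 and -0.41 on day 2. Leaving out RR males 17 to 21 was an alternative chosen after the data were seen. The differences were then -1.41 for the TNF domain probe, -1.27 for IgSF member 10 and -0.83 for LINGO-3. These 3 members then passed both thresholds (limma). All 3 were listed as higher in maturing testes, and the males left out had the highest maturation scores (0.66 to 1.05). NR 16, with the next score (0.59), stayed in. Lower RR means thus follow in part from the choice of males, and the calls are not read as ration differences. Leaving out RR males 17 to 21 also raised the count over all probes from 104 to 504, and takes high males from the RR side alone.

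**Figure D5:**
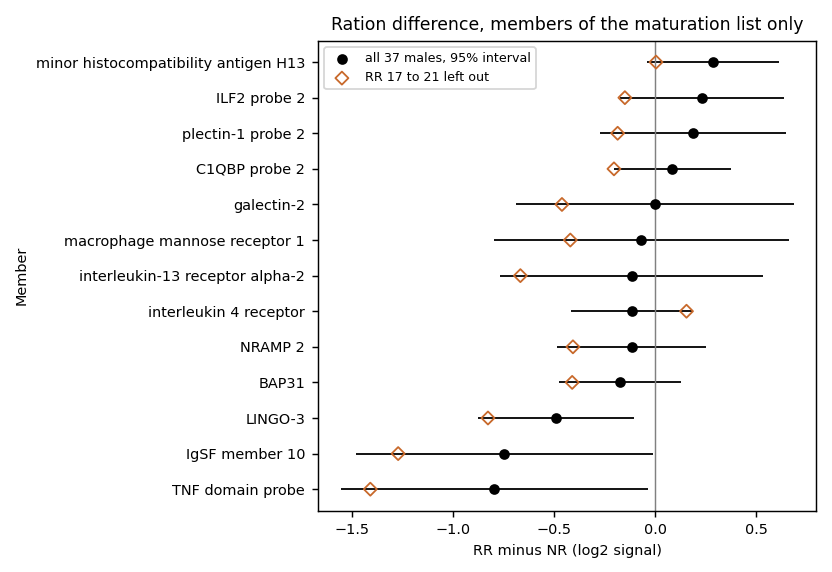
Difference between RR and NR males (x axis, log2) of the 13 members listed for maturation alone, with 95% intervals (black, 37 males) and the difference without RR males 17 to 21 (open diamonds). The diamonds lie to the left of the black points in 12 members and to the right in the interleukin 4 receptor.

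The other 10 members of this set differed by -0.17 to 0.29. Interleukin-13 receptor alpha-2, a decoy receptor that binds interleukin 13 without passing on its signal, ran from 8.85 to 11.92 in NR males (median 10.18) and from 8.40 to 12.21 in RR males (median 9.70), with a difference of -0.12 ± 0.32 (SE, limma, adjusted p = 0.882). The interleukin 4 receptor had the same size of difference, -0.12 ± 0.15 (SE, adjusted p = 0.715, limma), and 0.15 without RR males 17 to 21. Macrophage mannose receptor 1, a surface lectin of macrophages, had the widest range of all members, from 5.55 in RR 16 to 11.62 in RR 4, with NR males between 8.79 and 11.17. Its difference was -0.07 ± 0.36 (SE, limma, adjusted p = 0.940), and 0.14 without RR 16. Galectin-2 differed by 0.00 ± 0.34 (SE, limma, adjusted p = 0.999), and NRAMP 2, an iron transporter, by -0.12 ± 0.18 (SE, limma, adjusted p = 0.773). On days 1 and 2 the sign turned for the interleukin-13 receptor alpha-2 (-0.51 and 0.12), the interleukin 4 receptor (0.13 and -0.22), macrophage mannose receptor 1 (-0.26 and 0.34) and galectin-2 (0.21 and -0.16). It did not for NRAMP 2 (-0.07 and -0.17).

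The remaining 5 were general cell proteins. They were BAP31 of the endoplasmic reticulum (-0.17), minor histocompatibility antigen H13, a peptidase that cleaves signal peptides (0.29), ILF2 probe 2 (0.23), plectin-1 probe 2 (0.19) and C1QBP probe 2 (0.09). Minor histocompatibility antigen H13 was highest in RR 20 (10.55) and RR 19 (10.32), while NR males ran from 8.41 to 9.21. Without RR males 17 to 21 its difference was 0.00. Day 1 and day 2 differed most for ILF2 probe 2 (-0.04 and 0.65) and minor histocompatibility antigen H13 (0.10 and 0.54). They gave -0.15 and 0.08 for BAP31, 0.13 and 0.05 for plectin-1 probe 2 and -0.02 and 0.18 for C1QBP probe 2.

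A wider list held 10 probes with immune names that the words had missed, at a median difference of -0.14. The study listed 4 of them for a ration difference in maturing males, and these are described without a test. They were a CD20 family protein (0.22), perforin-1 (-0.17), NF-kappa-B inhibitor zeta (-0.16) and caspase-8 (0.11). The other 6, CD302, CD9, neutrophil cytosolic factor 4, cytokine-like protein 1, a myeloid differentiation marker and myelin and lymphocyte protein, were not differentially expressed, in a set that again holds none listed for ration. CD9 antigen, a surface protein of many cell types, came closest with a difference of -0.75 ± 0.20 (SE, limma, adjusted p = 0.0381). Of the 2 chemokine probes left out by the interferon term, the CXC chemokine probe was listed by the study for ration and had a difference of 0.33, and the interleukin-8-like probe differed by -0.68 ± 0.46 (SE, limma, adjusted p = 0.466). The steroid-making cells of the testis were followed by 2 probes for 3 beta-hydroxysteroid dehydrogenase, whose summed level ran from 10.97 to 13.15 in NR males (median 12.16) and from 10.47 to 12.52 in RR males (median 11.39), with neither probe differentially expressed. Their part in the members' levels was not tested.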

How the data were processed

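The authors deposited Agilent Feature Extraction output (version 10.7.1.1 per the labels) with the linear Cy3 intensity of each spot, with a second table on the log2 scale. The deposited log2 values matched the background-subtracted intensity on each spot after taking log2 (within 5e-09 for 1589471 values), so arrays had not been normalized against each other. Processed signals were put on the log2 scale and quantile normalized, as in the study's methods, control spots (1417) and outlier spots (581, none of a member) were left out, and the 40684 probes that 16 or more arrays measured well above background were fitted with lmFit and eBayes (limma 3.58.1, R 4.3.3). A probe was called differentially expressed where its p, adjusted by Benjamini-Hochberg, was below 0.01 and its fold change exceeded 1.5. The number of arrays limits the precision. No saturated spot was found. Signed columns of the study's comparisons were not used as values, but its lists chose the members and the probes of the maturation score.

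Every member could be named, as well as the wider immune list, the left-out probes and the marker lists. Members and lists were chosen with earlier results of these data known. Members listed for ration were described without a test. Alternatives were 75th percentile scaling, the deposited log2 values, other filters, scan day or slide as a block, single scan days, the maturation score, replicate numbers as a block, the methods' t-test, and leaving out each male. Leaving out RR males 17 to 21 or RR 16, the erythrocyte covariate and the scalings of the correlations were added after the data had been seen. The functions were tested on simulated data. The array carries 112 RefSeq accessions, and 0 of them were found in the gene table.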

Additional observations from a re-analysis of the deposited data

How the results depend on the processing

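The count of differentially expressed probes (104) was 9 with scan day as a block, 0 within day 1, 0 within day 2, 12 with the erythrocyte covariate, 187 with the maturation score, 290 with the replicate block and 504 without RR males 17 to 21. Leaving out single males gave 56 to 129, the count falling more than 1.5 times without NR 1, 2, 3, 8, 12, 13, 14, 15 or 16 or RR 3, 11 or 12. Of the 13 members listed for maturation alone, 0 were called with any single male left out. With the replicate block 1 passed both thresholds (LINGO-3, -0.83, limma), and without RR males 17 to 21 the 3 named above did. These settings are not independent, since NR has no males numbered 17 to 21 and the block takes the same 5 RR males out of the difference. Both take out the males with the highest maturation scores, so these calls are not read as ration differences. The median difference of the 13 members, -0.12, ran from -0.15 to -0.02 when single males were left out. It was -0.41 both with the replicate block and without RR males 17 to 21, and 0.08 with 75th percentile scaling, which moved the median over all probes from -0.02 to 0.07, 0.05 within scan day 2, 0.07 with the erythrocyte covariate and 0.03 with the maturation score. Of 16 pairs of same-numbered males, 6 correlated above 0.1, and the median correlation was 0.06. This does not settle what the numbers carry. NR 1 to NR 5 and RR 1 to RR 5 were all scanned on day 2, and the highest maturation scores lay near the end of each numbering. With other scalings, r of the C1QBP probes in NR males was 0.54 (deposited values), and r of the plectin-1 probes was 0.65 (75th percentile) and 0.68 (deposited values) in NR and 0.59 (75th percentile) in RR males. The causes were not tested.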
